A study of Cavia porcellus with 30 samples.

Results

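This account is about 10 of the 30 guinea pigs of a kidney toxicity study, the 5 given the low dose of mercuric chloride (1.00 mg/kg HgCl2) and sampled at 33 h and the 5 given vehicle and sampled at the same hour. They were taken by their labelled agent and time point. The study asked how the kidney transcriptome responds to 2 doses of mercuric chloride at 2 times after exposure, and placed 30 male Hartley guinea pigs in 6 groups of 5. The questions here were which transcripts were still changed at 33 h in every treated animal, and how unequal the treated animals were. Per the study's methods, the animals were bought at 4 weeks of age, were rested, received a jugular vein catheter and recovered before a single intraperitoneal injection. Vehicle animals had the same surgery and received saline at 1 ml/kg. All animals sampled at 33 h went without food for the last hours before sampling, so that the controls shared the catheter, the injection and the fast with the treated animals. Each library is 1 animal and is named by the number that ends its label, 43 to 47 for vehicle and 48 to 52 for the low dose.

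Mercuric chloride is an inorganic mercury salt that accumulates in the kidney, where the straight part of the proximal tubule takes up most of the metal. The mercuric ion binds sulfhydryl groups of proteins and glutathione. Kidney cells are known to answer such metals with metallothioneins, which bind the metal, and with enzymes that make and use glutathione, and a tubule that loses cells is known to regrow from those that survive. No source used here pairs the deposited transcript identifiers with gene symbols or sequences, so the transcripts below are named by their guinea pig Ensembl identifiers and are not assigned to any of these roles. Where a readable sheet of the study's supplement links a transcript to a guinea pig gene and to 1 or more rat Entrez gene numbers, these are given beside it. Only 2487 of the 19729 transcripts tested (12.6%) have such a link, because the sheet is readable only in part. For the same reason the labelled tissue could not be checked against kidney markers and rests on the labels alone.

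RNA came from whole frozen kidneys ground to powder, so every value is an average over all kidney cell types, and fewer cells of a type and less RNA per cell cannot be told apart. The deposited values are estimated counts of read pairs for 25824 transcripts, of which 24236 had a count in any of the 30 animals. Total estimated counts ran from 25222566 to 28861404 in the low-dose animals and from 24018495 to 31801103 in the vehicle animals, and 20520 to 20839 transcripts had a count in each. Levels are given in CPM, the counts of a transcript scaled to a common library total, after TMM scaling, a correction for libraries in which a few transcripts take a large share of the reads. A fold change is the log2 ratio of low dose to vehicle. A transcript is named called where its p-value in edgeR's quasi-likelihood test, adjusted by the Benjamini-Hochberg method over all transcripts tested, was at most 0.1, and apart where all 5 treated animals lay above, or all below, all 5 vehicle animals.

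At 33 h after the low dose, 177 of 19729 transcripts were called (0.897%), 94 of them higher than in the vehicle animals (0.476%) and 83 lower (0.421%). Of the 177, 167 were also apart (0.846% of those tested), 91 higher and 76 lower. Thus 94.4% of the called transcripts lay beyond the vehicle range in every treated animal. The call and the range rest on the same animals, and a call needs a difference that is large for its spread. The share therefore describes the list and does not measure how uniform the response was. Some other fits gave smaller shares, with 608 of 1472 called transcripts apart by DESeq2, 383 of 697 by limma-voom with animal weights and 434 of 1098 when all 30 animals were fitted together. Most of the rises were small. The 94 higher transcripts had a median log2 fold change of 0.44 (range 0.17 to 5.04), 61 of them lay under 1.5-fold and 15 reached 2-fold. The 83 lower transcripts had a median of -0.69 (range -4.22 to -0.20), with 33 under 1.5-fold and 25 at 2-fold or more. For comparison, the median over all tested transcripts was 0.00024 and the median size of the log2 fold change was 0.15.

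The number of calls changed widely with the threshold and when 1 animal was left out. At an adjusted p of at most 0.05 in edgeR's quasi-likelihood test, 14 transcripts remained, all 14 higher with the low dose. At an unadjusted p under 0.05, 3120 transcripts passed. Leaving out a vehicle animal lowered the count to 11 without animal 43 or 47, 13 without 44 and 17 without 45 or 46. Leaving out a treated animal gave 36 without animal 48, 117 without 50, 31 without 51 and 16 without 52. Each of these fits also has 1 animal fewer, and the part of the smaller group in the counts was not tested. One animal acted the other way. Without animal 49, 2079 transcripts were called, 1030 higher and 1049 lower, and these included all 177. The number at an unadjusted p under 0.05 moved far less, from 2307 to 3121 when any 1 of the other 9 animals was left out and to 4343 without animal 49. At the lowest counts nearly all calls were rises, 11 of 11 without vehicle animal 43 or 47. At the threshold of 0.1 and with all 10 animals kept, the other settings also moved the count, from 88 with no filter on low counts to 1472 with DESeq2, which called all 177 as well.

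**Figure D1:**
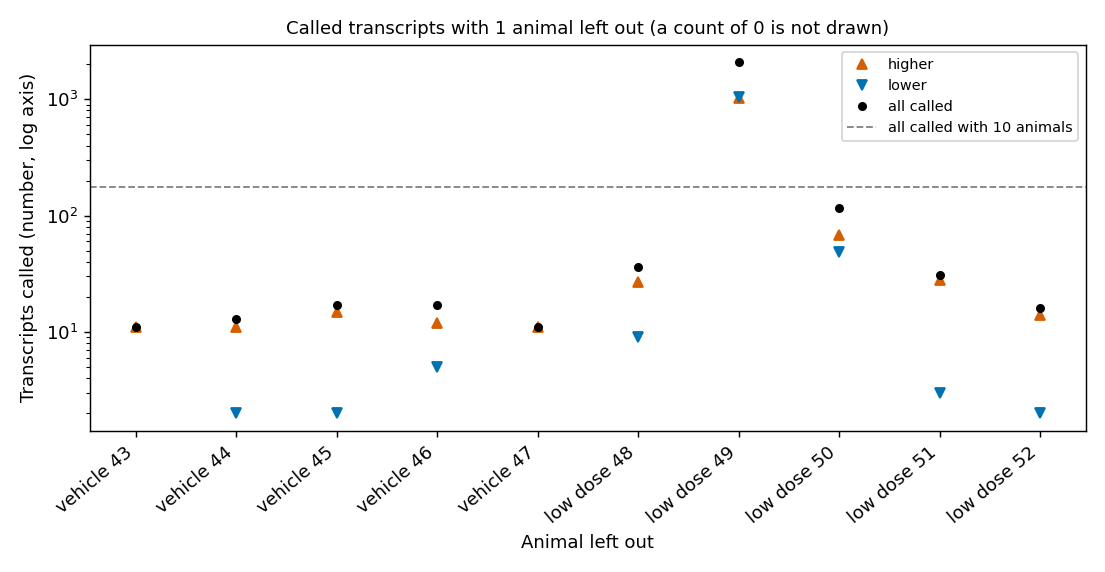
Number of called transcripts (log axis) when each of the 10 animals at 33 h was left out in turn, for all called transcripts (black points), those higher (upward triangles) and those lower (downward triangles) with the low dose; a count of 0 is not drawn. The dashed line marks the 177 called with all 10 animals. The points for low-dose animal 49 stand above it (2079 called, 1030 higher and 1049 lower), and those of every other animal lie below it.

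Without regard to the test, 722 transcripts were apart (3.66%), 407 with the treated animals higher (2.06%) and 315 with them lower (1.6%). The 555 of these that were not called had groups that did not overlap but a difference too small for their spread after adjustment over all transcripts. The 10 called transcripts that were not apart each had 4 of the 5 treated animals beyond the vehicle range. The animal that stayed inside was 49 in 5 of these, 50 in 4 and 51 in 1.

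Rises and falls had unlike medians of length and level. The 94 rises had a median length of 1608 bases and a median vehicle level of 58.9 CPM. The 83 falls had a median length of 3778 bases and a vehicle level of 40.9 CPM. All tested transcripts had medians of 2506 bases and 13.9 CPM. CPM is not corrected for length, and the part of length or level in being called was not tested. The supplement's links covered 37 of the 94 rises (39.4%) and 11 of the 83 falls (13.3%), against 12.6% of all transcripts tested. Rises were thus linked more often than transcripts at large, and the linked ones are not an even sample of the called list. The lower transcripts are described here with fewer gene identifiers.

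Of the transcripts that were apart and reached a mean log2 CPM of 1, the largest rise belonged to ENSCPOT00000044307.1, a transcript of 678 bases from gene ENSCPOG00000033531 that the supplement links to rat genes 100362623 and 689415. Its levels were 68.0, 43.3, 28.9, 53.8 and 52.6 CPM in vehicle animals 43 to 47 and 687, 359, 376, 422 and 626 CPM in low-dose animals 48 to 52. The groups lay far apart, and animals 48 and 52 were the highest. The log2 fold change was 3.31 (SE 0.27, adjusted p = 0.0011 in edgeR's quasi-likelihood test). At 9 h it had been 4.64, from 94.8 ± 33.6 CPM in the vehicle animals to 2363 ± 682 CPM with the low dose (SD, n = 5 each). The difference between the times, -1.32, passed the test at an adjusted p of 0.080 (edgeR).

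The second was ENSCPOT00000040875.1, of 4019 bases, for which the readable part of the supplement holds no link. It stood at 44.6, 39.3, 57.8, 41.1 and 69.0 CPM in the vehicle animals and at 243, 637, 382, 363 and 298 CPM in animals 48 to 52. Here the order of the treated animals was turned round, with 49 the highest and 48 the lowest. It had risen by 2.92 on the log2 scale (SE 0.27, adjusted p = 0.0029 in edgeR's quasi-likelihood test). It had been 4.82 at 9 h, and the fall between the times of -1.90 gave an adjusted p of 0.0099 (edgeR).

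The most even of the large rises was ENSCPOT00000001022.3, from gene ENSCPOG00000001014 and linked to rat gene 114846. The vehicle animals measured 43.7, 32.1, 32.5, 33.7 and 37.7 CPM and the treated animals 210, 214, 171, 228 and 215 CPM. The 5 treated animals were nearly level, with animal 49 among them. Its log2 fold change of 2.52 (SE 0.11) had the smallest adjusted p of all named transcripts, 4.7e-06 in edgeR's quasi-likelihood test. At 9 h it had risen further, by 3.69, and the difference of -1.17 between the times had an adjusted p of 0.044 (edgeR).

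ENSCPOT00000026835.2, from gene ENSCPOG00000022115 and linked to rat gene 192227, was the one named rise that was larger at 33 h than at 9 h by the test of the difference. The vehicle animals lay between 27.7 and 31.0 CPM, and the treated animals measured 70.1, 132, 162, 111 and 97.0 CPM. Animal 48 was the lowest and 50 the highest, and all 5 exceeded the vehicle range. The log2 fold change was 1.94 at 33 h (SE 0.19, adjusted p = 0.0033, edgeR) and 0.99 at 9 h. The difference of 0.96 had an adjusted p of 0.079 (edgeR).

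ENSCPOT00000037997.1, from gene ENSCPOG00000039887, is linked to rat genes 24188 and 29651 and was the most abundant named transcript. Its levels were 853, 834, 1062, 869 and 868 CPM with vehicle and 1996, 5299, 3338, 2904 and 2270 CPM in animals 48 to 52. Animal 49 was the highest by far and 48 the lowest, and this was one of the 2 linked transcripts with the widest spread between treated animals. The log2 fold change was 1.81 (SE 0.24, adjusted p = 0.028 in edgeR's quasi-likelihood test). At 9 h it was 2.02, and the difference of -0.21 did not pass the test (adjusted p = 0.74, edgeR). The adjusted p rose to 0.11, 0.10 and 0.12 without vehicle animals 43, 44 and 47, respectively.

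A similar order was seen for ENSCPOT00000025069.2, from gene ENSCPOG00000020253 and linked to rat gene 24426. It measured 295 to 387 CPM with vehicle and 639, 1075, 1031, 915 and 779 CPM in animals 48 to 52. Animal 48 again had the smallest rise and 49 the largest, and the groups did not overlap. The rise was 1.31 on the log2 scale (SE 0.14, adjusted p = 0.0068, edgeR), against 1.68 at 9 h.

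ENSCPOT00000011224.3, a transcript of 189 bases from gene ENSCPOG00000011120 linked to rat gene 24567, followed the other order. Vehicle animals lay between 147 and 241 CPM and treated animals at 507, 387, 371, 502 and 606 CPM. The highest levels were in animals 52, 48 and 51. Its rise on the log2 scale was 1.25 (SE 0.16, adjusted p = 0.021, edgeR), and it had been 2.43 at 9 h. The difference of -1.17 between the times had an adjusted p of 0.033 (edgeR).

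The last 2 named rises stood near the threshold. ENSCPOT00000013425.3, from gene ENSCPOG00000013296 and linked to rat gene 140668, measured 27.2 to 31.8 CPM with vehicle and 55.2, 51.0, 41.9, 58.0 and 97.7 CPM with the low dose, so that animal 52 stood above the other 4. ENSCPOT00000001015.3, from gene ENSCPOG00000001007 and linked to rat gene 365476, measured 1.80 to 2.25 CPM with vehicle and 3.46, 3.62, 5.74, 4.19 and 3.24 CPM with the low dose. Their log2 fold changes were 1.06 and 0.99, each with an adjusted p of 0.079 in edgeR's quasi-likelihood test. Leaving out any 1 vehicle animal, or treated animal 48 or 51, took both out of the called set, as did leaving out animal 52 for ENSCPOT00000001015.3 (adjusted p from 0.12 to 0.18, edgeR).

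The most unequal called transcript with a link was ENSCPOT00000001279.3, of 549 bases, from gene ENSCPOG00000001263 and linked to rat gene 29545. It stood at 1.01, 0.829, 0.563, 0.421 and 0.917 CPM in the vehicle animals and at 16.8, 0.960, 3.12, 13.1 and 17.2 CPM in animals 48 to 52. In estimated counts this was 10 to 27 with vehicle and 510, 26, 89, 337 and 505 with the low dose. Animal 49 lay inside the vehicle range, animal 50 at 3.12 CPM against a highest vehicle level of 1.01 CPM, and the other 3 at 13.1 CPM or more. The log2 fold change was 3.75 (SE 0.72, adjusted p = 0.080 in edgeR's quasi-likelihood test). It was 3.79 at 9 h, where the treated animals varied as widely (9.57 ± 7.25 CPM, SD, n = 5). The call was lost with limma-trend (adjusted p = 0.12) and with weights for the animals (adjusted p = 0.20), and without any 1 vehicle animal or treated animal 48, 51 or 52 (adjusted p from 0.15 to 0.19, edgeR). By contrast, ENSCPOT00000044307.1, ENSCPOT00000040875.1, ENSCPOT00000001022.3, ENSCPOT00000026835.2, ENSCPOT00000025069.2 and ENSCPOT00000011224.3 stayed called whichever animal was left out.

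**Figure D2:**
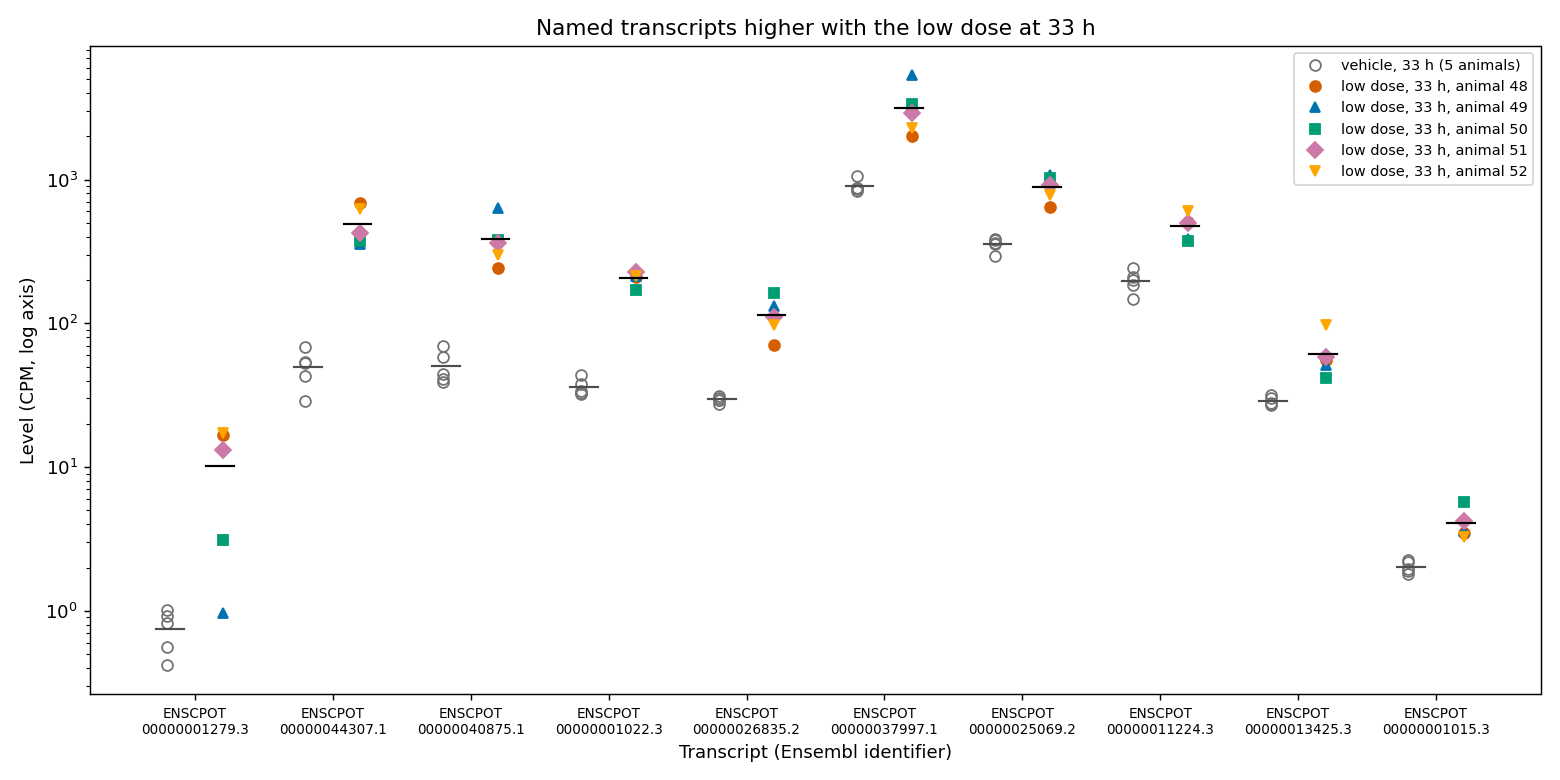
Level (CPM, log axis) of the 10 named transcripts higher with the low dose at 33 h, with open circles for the 5 vehicle animals, one symbol for each low-dose animal and bars at the group means. Treated and vehicle animals do not overlap in 9 of the 10, the exception being ENSCPOT00000001279.3, where animal 49 lies at 0.960 CPM inside the vehicle range. Animal 49 is the highest point of ENSCPOT00000040875.1, ENSCPOT00000037997.1 and ENSCPOT00000025069.2.

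The 2 largest falls among transcripts that were apart and reached a mean log2 CPM of 1 came from transcripts that varied widely between the vehicle animals. ENSCPOT00000012405.3, of 1364 bases, measured 33.1, 12.5, 6.97, 5.72 and 33.0 CPM with vehicle and 0.791, 1.73, 3.26, 0.969 and 1.02 CPM with the low dose. ENSCPOT00000015558.3, of 1707 bases, measured 14.2, 22.2, 6.16, 5.39 and 45.8 CPM with vehicle and 3.13, 2.81, 3.99, 2.71 and 3.24 CPM with the low dose. In both, the vehicle animals 45 and 46 were the lowest, and every treated animal still lay below them. The log2 fold changes were -3.56 (SE 0.62, adjusted p = 0.066) and -2.57 (SE 0.55, adjusted p = 0.098) in edgeR's quasi-likelihood test. Neither passed at 9 h, where the log2 fold changes were -0.76 and -0.82. The difference between the times was -2.80 for ENSCPOT00000012405.3 (adjusted p = 0.061, edgeR) and -1.74 for ENSCPOT00000015558.3, which did not pass (adjusted p = 0.16, edgeR). The 33 h call of ENSCPOT00000012405.3 was lost with weights for the animals (adjusted p = 0.18), and that of ENSCPOT00000015558.3 with limma-trend (0.12), with weights for the animals (0.25) and with edgeR's robust dispersion (0.101).

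ENSCPOT00000009029.3, from gene ENSCPOG00000008947 and linked to rat gene 58917, likewise varied between the vehicle animals. It measured 4.36, 8.83, 3.55, 1.89 and 10.3 CPM with vehicle and 1.52, 0.886, 0.980, 0.892 and 1.64 CPM with the low dose. The closest vehicle animal, 46, stood just above the highest treated animal. The log2 fold change was -2.30 (SE 0.45, adjusted p = 0.083 in edgeR's quasi-likelihood test), a call that was lost with weights for the animals (adjusted p = 0.18, limma-voom). The 5 high-dose animals (1.50 mg/kg) were widely spread, from 1.32 to 18.4 CPM with a median of 3.29 CPM. At least 1 of them lay below every vehicle animal, and the highest lay above them all. High and low dose differed by 2.45 on the log2 scale (adjusted p = 0.034, edgeR), and this difference was not recomputed without the highest animal.

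The named falls of about 2-fold had tight vehicle groups. ENSCPOT00000012750.3, from gene ENSCPOG00000012629 and linked to rat gene 25654, lay at 40.3 to 47.0 CPM with vehicle and at 17.9, 33.9, 18.0, 15.3 and 23.2 CPM in animals 48 to 52. ENSCPOT00000031549.1, from gene ENSCPOG00000039149 and linked to rat genes 116463, 286921 and 296972, lay at 128 to 157 CPM with vehicle and at 42.5, 101, 84.6, 80.7 and 59.7 CPM with the low dose. ENSCPOT00000048329.1, from gene ENSCPOG00000013378 and linked to rat gene 24560, lay at 14.5 to 18.7 CPM with vehicle and at 6.19, 11.2, 9.59, 10.1 and 7.92 CPM with the low dose. In all 3, animal 49 had fallen least. Their log2 fold changes were -0.98 (SE 0.19, adjusted p = 0.080), -0.97 (SE 0.20, adjusted p = 0.088) and -0.88 (SE 0.15, adjusted p = 0.065) in edgeR's quasi-likelihood test. ENSCPOT00000043629.1, from gene ENSCPOG00000038440 and linked to rat gene 300384, had the same order at its weak end, with 52.4 to 63.6 CPM against 31.4, 47.3, 41.9, 33.3 and 26.7 CPM and a log2 fold change of -0.68 (SE 0.14, adjusted p = 0.094, edgeR).

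The 3 smallest of the named falls lay close to the vehicle range. ENSCPOT00000040483.1, from gene ENSCPOG00000030432 and linked to rat gene 298549, measured 82.4 to 91.8 CPM with vehicle and 70.1, 75.1, 71.7, 72.1 and 76.7 CPM with the low dose, a log2 fold change of -0.27 (SE 0.046, adjusted p = 0.065, edgeR). ENSCPOT00000004798.3, from gene ENSCPOG00000004747 and linked to rat gene 305441, measured 151 to 164 CPM against 126, 143, 125, 120 and 114 CPM. ENSCPOT00000036979.1, from gene ENSCPOG00000015199 and linked to rat gene 306264, measured 18.5 to 22.8 CPM against 16.9, 14.8, 13.3, 15.5 and 16.3 CPM. The treated animals lay just below the vehicle animals in each, and in ENSCPOT00000004798.3 animal 49 had again fallen least. All 3 calls were lost when the 30 animals were fitted together (adjusted p of 0.12, 0.18 and 0.15 in the order given, edgeR). The last 2 had log2 fold changes of -0.34 and -0.43. ENSCPOT00000036979.1 had a log2 fold change of 0.05 at 9 h, which did not pass the test. All 10 named falls were called without animal 49, and none of the 10 was called without vehicle animal 43, 44, 45 or 47 or treated animal 51 or 52 (adjusted p from 0.11 to 0.22, edgeR). Their fold changes kept their sign in these smaller designs, as in ENSCPOT00000012750.3 with -0.88 to -1.01.

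**Figure D3:**
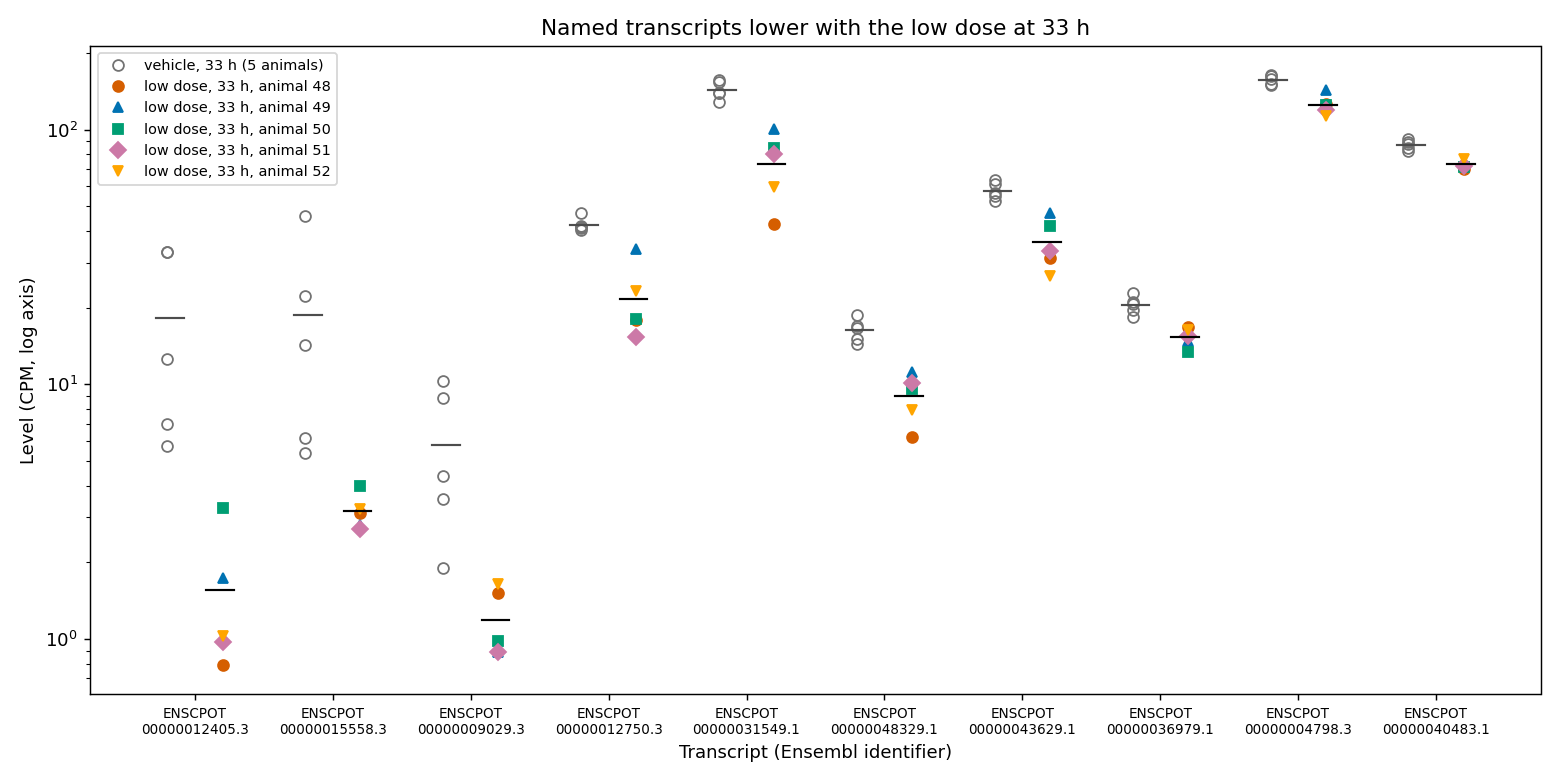
Level (CPM, log axis) of the 10 named transcripts lower with the low dose at 33 h, drawn in the same way as the rises. The groups do not overlap in any of the 10; the vehicle animals of ENSCPOT00000012405.3 run from 5.72 to 33.1 CPM, and animal 49 is the treated animal nearest to the vehicle group in ENSCPOT00000012750.3, ENSCPOT00000031549.1, ENSCPOT00000048329.1 and ENSCPOT00000043629.1.

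The transcripts called at 33 h were compared with those called at 9 h, where other treated and other vehicle animals were used. At 9 h the low dose called 4550 transcripts (23.1%), 2312 higher (11.7%) and 2238 lower (11.3%). Of the 177 called at 33 h, 97 were also called at 9 h, which is 54.8% of the 33 h list and 2.13% of the 9 h list. The direction was the same in 91, with 41 higher and 50 lower at both times, and opposite in 6. Of these 91, 86 were also apart at 33 h. All 15 rises of at least 2-fold had also been called higher at 9 h, against 26 of the 79 smaller rises. Of the falls, 14 of the 25 of at least 2-fold and 36 of the 58 smaller ones were called lower at both times. The 41 shared rises had a median log2 fold change of 0.84 at 33 h and 1.18 at 9 h, and 30 were larger at 9 h. The 50 shared falls had medians of -0.79 and -0.83, and 28 were larger at 9 h.

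The remaining 80 transcripts, 49 higher and 31 lower, were called at 33 h and not at 9 h, and 55 of these had the same sign at 9 h. A missed call at 9 h does not show a difference, so the effects at the 2 times were compared in a test of their own. It called 1030 of all transcripts (5.22%) and 43 of the 177. Among the rises, 28 were larger at 33 h and 9 were smaller. Among the falls, 6 were larger at 33 h and none of the 43 was smaller. The 177 had been chosen by their 33 h effect, which favours transcripts whose estimate at 33 h came out large, so these counts describe the list and are no test of its timing.

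High-dose animals sampled at 33 h shared their vehicle animals with the low-dose animals, so the 2 comparisons with vehicle are not independent and only values are given side by side. The high dose called 9701 transcripts against the same vehicle animals (49.2%). The direct comparison of high and low dose, which uses no vehicle animal, called 5657 (28.7%) and 105 of the 177. Of the 94 rises, 40 were higher still with the high dose and 8 were lower than with the low dose. Of the 83 falls, 52 were lower still with the high dose and 5 were higher than with the low dose. The low-dose animals that helped to choose the 177 also enter this comparison, so these counts describe the list only.

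ENSCPOT00000044307.1 reached 1075 ± 187 CPM (SD, n = 5) with the high dose against 494 ± 152 CPM with the low dose, a log2 difference of 1.12 (SE 0.21, adjusted p = 0.0087, edgeR). ENSCPOT00000011224.3 reached 810 ± 116 against 474 ± 97.0 CPM, a difference of 0.77 (adjusted p = 0.0095, edgeR). ENSCPOT00000037997.1 was lower with the high dose, at 1286 ± 264 CPM against 3161 ± 1305 CPM, a difference of -1.30 (adjusted p = 0.0098, edgeR). The first 2 were thus higher and the third lower at the larger dose. Of the falls, ENSCPOT00000031549.1 went from 73.7 ± 22.8 to 23.8 ± 5.60 CPM (-1.63, adjusted p = 0.0075), ENSCPOT00000012750.3 from 21.7 ± 7.42 to 11.0 ± 1.78 CPM (-0.98, adjusted p = 0.013) and ENSCPOT00000048329.1 from 9.00 ± 1.96 to 4.67 ± 0.794 CPM (-0.95, adjusted p = 0.0083), each by edgeR's quasi-likelihood test. For ENSCPOT00000040875.1, at 383 ± 121 CPM with the high dose and 384 ± 152 CPM with the low dose, a difference was not seen (-0.01, SE 0.29, adjusted p = 0.99, edgeR), with a standard error of the difference that leaves room for a change either way.

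To give each animal 1 value that its own data had not chosen, a score was computed over 4257 transcripts called with the low dose at 9 h, 2115 higher and 2142 lower there. The score is the mean difference in log2 CPM from the 33 h vehicle mean, with the sign turned for transcripts that fell at 9 h, so that 0 is the vehicle mean and a positive value points the way of the 9 h response. The vehicle animals 43 to 47 scored 0.018, -0.027, -0.040, -0.003 and 0.052. The low-dose animals 48 to 52 scored 0.349, -0.034, 0.104, 0.173 and 0.268. Animals 48, 50, 51 and 52 lay above all vehicle animals, and animal 49 lay among them. The group mean was 0.172 ± 0.148 with the low dose, and the vehicle scores, whose mean is 0 by construction, had an SD of 0.037 (n = 5 each). The difference gave p = 0.040 in a two-sided exact permutation test, where 0.0079 is the smallest p that 5 against 5 allows.

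Whether the treated animals were more unequal was asked of the same score. The mean distance from the group median was 0.109 in the treated and 0.027 in the vehicle animals, a difference of 0.082 (two-sided exact permutation test, p = 0.071). Distances from a group's own median are not independent of each other, so the p-values for spread are approximate although every regrouping was counted. Adjusted over these 2 tests, both p-values were 0.071 (exact permutation tests, Benjamini-Hochberg), so neither passed 0.05. Leaving out 1 animal moved both p-values across 0.05 before adjustment. The score difference kept an exact permutation p under 0.05 only without animal 49 (0.223, p = 0.016). Without vehicle animals 43 to 47 in turn it gave 0.063, 0.063, 0.079, 0.063 and 0.063, and without animal 48, 50, 51 or 52 it gave 0.079 (exact permutation tests). The spread passed 0.05 without animals 49 or 50 (p = 0.048 each) or 51 (p = 0.016) in the same exact permutation test.

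The animals were then counted over all transcripts whose mean log2 CPM reached 1, each against 4 vehicle animals. Vehicle animals 43 to 47 had 82, 49, 47, 62 and 62 transcripts at least 2-fold beyond the range of the other 4. Low-dose animals 48 to 52 had on average 529.6, 95.2, 168.6, 156.8 and 327.4 transcripts that far beyond 4 of the 5 vehicle animals. All 5 exceeded every vehicle animal, and animals 48 and 52 exceeded the rest of their group. Animal 49 came closest to the vehicle animals by this count as by the score. Pairs of low-dose animals differed at least 2-fold in 401 to 1340 transcripts (median 675), and pairs of vehicle animals in 363 to 515 (median 407.5).

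**Figure D4:**
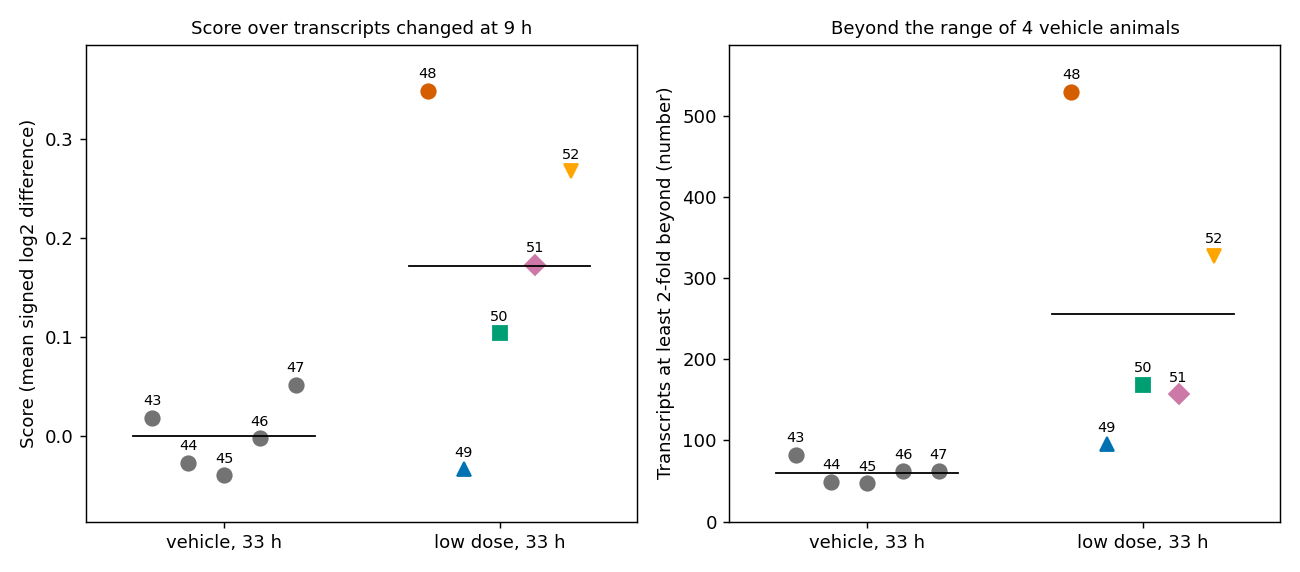
Score over the transcripts changed at 9 h (left, mean signed log2 difference) and number of transcripts at least 2-fold beyond the range of 4 vehicle animals (right) for each animal at 33 h, with bars at the group means. Animals 48 and 52 stand highest in both panels; animal 49 scores -0.034, among the vehicle animals, and has 95.2 transcripts beyond their range.

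Library measures also differed between the treated animals. The 10 most abundant transcripts held 9.65%, 11.7%, 11.8%, 10.9% and 9.39% of the estimated counts in animals 48 to 52 and 10.7% to 12.2% in the vehicle animals. The lowest shares thus belonged to animals 48 and 52, which had the highest scores. TMM factors were 1.06, 0.95, 0.99, 1.02 and 1.03 in the same order and 0.97 to 1.01 in the vehicle animals, so that animals 48 and 49 lay at the ends. The weights that limma-voom gave the animals for their scatter around the group means were 0.62, 0.58, 0.81, 1.45 and 0.76 with the low dose and 1.00 to 1.64 with vehicle, lowest in animals 48 and 49. The part of these measures in the scores was not tested. Total counts did not follow the same order, since the smallest total was that of animal 51 and the largest that of animal 50.

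Within the called lists the treated animals kept a partial order. Over the 94 rises, the median log2 difference from the vehicle mean was 0.46, 0.34, 0.44, 0.39 and 0.54 in animals 48 to 52. Over the 83 falls it was -0.97, -0.38, -0.58, -0.76 and -0.86. All 5 animals helped to choose these lists, so the values are a description. The weakest median belonged to animal 49 in both directions. It had the highest level of the 5 in 52 of the 83 falls, which is the smallest fall, and animal 48 had the lowest level in 44. Among the rises, animal 49 was lowest in 46 of 94 and animal 52 highest in 38. Over all transcripts whose mean log2 CPM reached 1, animal 49 was the highest of the 5 in 25.2% and the lowest in 25.4%, animal 48 the lowest in 23.5% and animal 52 the highest in 19.5%.

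The large rises had another order. In the 79 rises under 2-fold, animal 49 was the lowest of the treated animals in 43 and the highest in 3. In the 15 rises of at least 2-fold it was the lowest in 3 and the highest in 8, and animal 48 was the lowest in 8. The median log2 difference over these 15 was 1.29, 2.21, 1.90, 1.84 and 1.83 in animals 48 to 52, and over the 79 smaller rises 0.43, 0.29, 0.37, 0.37 and 0.48. ENSCPOT00000040875.1, ENSCPOT00000037997.1 and ENSCPOT00000025069.2, whose levels are given above, were among the large rises with animal 49 highest and 48 lowest. This split of the rises by size was made after the values were seen. It used a group mean that includes animal 49, so a high level in animal 49 itself helps to place a transcript among the large rises, and the counts are a description.

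The spread between animals was more often larger in the treated group, in the called lists as over all transcripts. The median SD of log2 CPM over the rises was 0.135 between treated and 0.088 between vehicle animals, and 71 of 94 rises (75.5%) had the larger SD in the treated animals. Over the falls the medians were 0.272 and 0.146, with 59 of 83 (71.1%) larger in the treated animals. Over all tested transcripts they were 0.228 and 0.178, with 63.9% larger.

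A last count looked at transcripts that missed being apart by 1 treated animal. In 2092 transcripts exactly 4 of the 5 treated animals lay beyond all vehicle animals on the side of the group difference, 1125 above and 967 below. The animal inside the vehicle range was 49 in 1270 of these, with 686 above and 584 below. It was animal 48 in 205, 50 in 264, 51 in 244 and 52 in 109. Animal 49 was therefore the exception in more transcripts than the other 4 animals together. Leaving out a treated animal left 927 transcripts apart without animal 48, 1992 without 49, 987 without 50, 967 without 51 and 831 without 52. By construction these counts equal, or nearly equal, the 722 with the exceptions of that animal added, so they are no separate result.

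**Figure D5:**
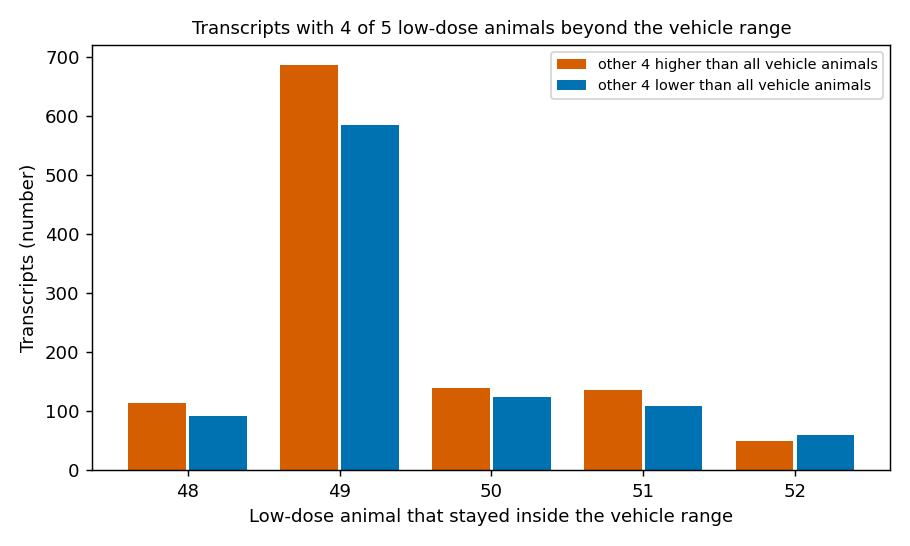
Number of transcripts in which exactly 4 of the 5 low-dose animals lay beyond all 5 vehicle animals, by the low-dose animal that did not, with separate bars for transcripts higher and lower in the other 4. Animal 49 accounts for 686 and 584 transcripts, and no other animal has more than 140 in a bar.

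Each treated animal was also judged on transcripts that the other 4 had chosen. Because the lists called without 1 animal differed in size from 16 to 2079, the 200 transcripts with the smallest p in each fit were used. Animals 48 to 52 lay beyond the vehicle range on the side of the other animals in 182 (91%), 106 (53%), 172 (86%), 174 (87%) and 185 (92.5%) of their 200. Their median log2 differences in that direction were 0.63, 0.16, 0.41, 0.39 and 0.55, and those of the remaining animals were 0.57, 0.73, 0.67, 0.55 and 0.54. Animal 49 had the direction of the other animals in 161 of its 200 transcripts, and the other 4 in 190 to 194 of 200. The same vehicle animals helped to choose each list and set the range, which favours agreement even in an animal without a response, so the shares have no known value for no change and can only be set beside each other.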

How the data were processed

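Poly-A RNA of powdered whole kidney was sequenced as 75-base read pairs. The authors quantified guinea pig transcripts with kallisto 0.42.4, per the labels, and deposited for each animal estimated counts and TPM, which the authors' program scales to a fixed library sum. The annotation release was not given in the sources used here. Estimated counts were rounded. Of 25824 transcripts, 19729 passed edgeR's default filter over 6 groups. The main test was edgeR's quasi-likelihood test (edgeR 4.0.16, R 4.3.3, TMM) on the animals compared, with Benjamini-Hochberg adjustment over all tested transcripts and a threshold of 0.1, the study's own. The study's Sleuth test needs repeated kallisto estimates, which were not used here. Log2 CPM had a prior count of 2 and was scaled over all 30 animals, whereas each fit scaled its own animals. Scripts were tested on simulated data. Alternatives were limma 3.58.1 (trend, and voom with animal weights), DESeq2 1.42.0, other filters and scalings, all 30 animals in one fit, log2(TPM + 1) and leaving out each animal. Isoforms of 1 gene and close relatives share reads, so their counts are estimates.

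Transcripts were named by rule among those called and reaching a mean log2 CPM of 1. Of those that were also apart, the rule took the 2 largest rises and falls and up to 8 rises and 8 falls with identifiers in the supplement. Apart or not, it also took the 2 linked transcripts most unequal between treated animals, of which ENSCPOT00000001279.3 was not apart. The supplement's columns of fold changes and p-values were not used. Members and lists were chosen with earlier results of these data known, and the lists of 200, the counts of exceptions and the animal weights set beside values were added after the data were seen. No sequence was printed because no file used here holds one. Replicates are separate animals per the labels, which give no batch. A check for a library deposited more than once, in the 20 same-group pairs at 33 h, found none with counts alike within sampling noise (chi-square per degree of freedom of at least 15.7).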

Additional observations from a re-analysis of the deposited data

Results flagged for a closer look

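In 46 groups of 5 values (the totals, shares and scores of the animals and the levels of the 20 named transcripts), 4 held a sample far from the others by Dixon's criterion, where chance alone gives about 1 in 20. The total estimated count of low-dose animal 51 was 25222566, against 28450388 in the next. ENSCPOT00000037997.1 stood at 1062 CPM in vehicle animal 45, against 869 CPM in the next highest vehicle animal. ENSCPOT00000013425.3 stood at 97.7 CPM in low-dose animal 52, against 58.0 CPM in the next. ENSCPOT00000012750.3 stood at 47.0 CPM in vehicle animal 47, against 42.0 CPM in the next.

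For 6 named transcripts the low-dose effect differed between 33 h and 9 h, in a test of that difference (edgeR's quasi-likelihood test, Benjamini-Hochberg adjustment). The log2 effect at 33 h minus that at 9 h was -1.32 for ENSCPOT00000044307.1 (adjusted p = 0.080), -1.90 for ENSCPOT00000040875.1 (0.0099), -1.17 for ENSCPOT00000001022.3 (0.044) and -1.17 for ENSCPOT00000011224.3 (0.033), so that these 4 rises were smaller at 33 h. It was 0.96 for ENSCPOT00000026835.2 (adjusted p = 0.079), a rise that was larger at 33 h. It was -2.80 for ENSCPOT00000012405.3 (adjusted p = 0.061), a fall that was larger at 33 h.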

How the results depend on the processing

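Against 177 called transcripts, of which 167 were apart, DESeq2 called 1472 (608 apart), voom with animal weights 697 (383), one fit of all 30 animals 1098 (434), no filter 88 (87) and a threshold of 0.05 14 (14). RLE factors, limma-trend, edgeR's robust dispersion and the filter of Sleuth stayed within 1.5 times. Leaving out 1 animal gave 11 to 2079 called and 11 to 1484 called and apart, the highest without animal 49 and the next highest, 117, without animal 50. Transcripts apart without regard to the test numbered 683 with TPM, 744 with no filter, 718 with RLE factors and 831 to 1992 without 1 animal. The score difference of 0.172 ran from 0.128 to 0.223 without 1 animal, and from 0.154 (TPM) to 0.608 (transcripts changed at least 2-fold at 9 h, exact permutation p = 0.016) elsewhere. The difference in spread of 0.082 ran from 0.058 to 0.109 without 1 animal, and from 0.070 (high-dose list of 9 h) to 0.247 (transcripts changed at least 2-fold at 9 h, exact permutation p = 0.056) elsewhere. The share of rises among the calls was 53.1%, against 41.8% with animal weights, 68.7% with all 30 animals, 100% at a threshold of 0.05 and 49.5% (without animal 49) to 100% (without vehicle animal 43 or 47) when 1 animal was left out. The named transcripts were refitted under 16 of these alternatives, the 2 other filters not among them. Of the 20, 6 stayed called in all 16, and none changed direction there. No paired analysis was possible because the groups share no animal numbers. The cause of these changes was not tested.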
